A study of Oryza sativa Indica Group with 8 samples.

Results

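Jasmonate is a plant hormone made from membrane lipids. The 35 genes measured here, in rice roots with and without drought, carry names of families of its synthesis and signalling. A role in jasmonate synthesis or signalling is not settled for every one of them. A gene was taken when a symbol or synonym in the annotation of the array, with any Os prefix dropped, read LOX, AOS, AOC, OPR, JAR, TIFY or JAZ followed by a number, or AOC alone, and at least 1 probe set was assigned to it and to no other gene. The rule uses names only and no measured value, but the members were chosen with earlier results of these data known. It found 39 genes, of which 35 were measured among the 17905 genes on the array that had such a probe set. They comprise 18 genes called synthesis genes here by family name (5 LOX, 4 AOS, 1 AOC, 7 OPR and 1 JAR). The other 17 are TIFY genes, of which 13 also carry a JAZ name. LOX4, TIFY1B, OPR3 and a second locus named OPR1 (LOC112936094) met the rule and had no probe set of their own.

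Transcripts were measured on an Affymetrix rice genome array in roots of 2 indica rice cultivars. The 4 groups were stressed and control roots of Nootripathu, described as a deep-rooted, drought-tolerant landrace, and stressed and control roots of IR20, described as a shallow-rooted, susceptible, semi-dwarf and high-yielding cultivar. Single plants grew in a greenhouse in PVC pipes 1 m long filled with coir pith and soil, water was withheld from stressed plants from day 40 after sowing, and roots were taken once the leaves rolled and dried. Each group had 2 biological replicates with 1 array each, 8 arrays in all, and the labels do not say whether a replicate was 1 plant or a pool. Control roots had been washed in de-ionised water, whereas soil was tapped off stressed roots, so washing and watering cannot be told apart in any comparison of stressed with control roots.

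Jasmonate synthesis begins in the plastid, where lipoxygenases (LOX) add oxygen to a fatty acid, allene oxide synthases (AOS) turn the product into an unstable oxide, and allene oxide cyclase (AOC) closes its ring. An oxophytodienoate reductase (OPR) acts next in the peroxisome, and JAR enzymes join the finished jasmonic acid to isoleucine, which gives the active hormone. The active hormone brings the receptor COI1 and the JAZ repressors together, the JAZ proteins are destroyed, and the genes they held back are transcribed. JAZ genes are TIFY genes, named for a short amino acid motif, and many of them are themselves induced by jasmonate. Roots use the pathway in wound and pathogen defence and in the restraint of growth.

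Values are log2 signals, so a difference of 1 is a 2-fold change, and differences are given ± the standard error (SE) of the fit with 2 arrays per group. The SE comes from 1 spread estimated over all 4 groups. A gene passed when the p of its difference in limma, adjusted by Benjamini and Hochberg over all 57258 probe sets, was under 0.05. The signal of one probe set cannot be set against that of another, so levels are compared between samples within a gene only. In whole roots, fewer cells of a type and less RNA per cell cannot be told apart.

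The arrays had medians between 5.29 and 5.35. On stressed IR20 replicate 2 the spiked-in control transcripts read 5.32 higher at the 3′ than at the 5′ end, against 2.08 to 2.58 on the other 7 arrays, and calls of the 35 genes that change without this array are given with and without it. The spiked-in 3′ signals averaged 11.09 and 10.67 on stressed Nootripathu and 11.09 and 10.51 on stressed IR20 arrays, against 9.96 and 10.01 on control Nootripathu and 10.15 and 10.23 on control IR20 arrays. The measured root markers, 8 of them, included the silicon transporter LSI1, with mean signals of 13.5 and 13.7 in stressed Nootripathu and IR20 roots and 14.5 in control roots of both. All 8 were lower in stressed than in control roots of both cultivars, against 17.5% of all genes. The mean of the 8 signals was 7.60 to 7.71 in stressed and 9.80 to 9.81 in control Nootripathu roots, and 6.49 to 6.70 in stressed and 10.58 to 10.64 in control IR20 roots. The ammonium transporter AMT1-2, a root marker, averaged 3.52 in stressed IR20 roots, under the lower quartile of those arrays. The summed signal of 6 green-tissue genes lay between 12.15 and 12.43 (log2) on all 8 arrays. GLO1 and GLO4, the brightest of them, make up most of that sum, so it says little of the others. In Nootripathu 0 of the 6 rose (0 also at an unadjusted p under 0.05 in limma) and 1 fell, PETC at −1.95. In IR20 2 rose, among them GLO1 at 0.93, and 1 fell, GLO4 at −0.71. Among all genes 31.1% rose and 23.2% fell in Nootripathu, and 28.9% rose and 32.3% fell in IR20. Of the 2 green-tissue rises in IR20, 1 is negative on the spike-in scale described below. The part of these shifts in the results below was not tested.

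Under drought most of the 35 genes had lower signals. In Nootripathu 20 fell, 2 rose and 13 did not pass, where 23.2% of all measured genes fell and 31.1% rose (54.4% passed in either direction). In IR20 23 fell, 4 rose and 8 did not pass, where 32.3% of all genes fell and 28.9% rose (61.3% in either direction). The median difference of the 35 genes was −0.52 in Nootripathu and −0.82 in IR20, beside 0.08 and 0.00038 over all genes. Genes that fell in both cultivars numbered 19 of 35, against 17.5% of all genes. The differences of the 2 cultivars were taken between separate arrays. The spread behind both sets of p values came from all 8 arrays, so the counts are not independent. Over fits that left out each of the 8 arrays in turn, 17 of the 22 differences that passed in Nootripathu and 21 of the 27 in IR20 passed every time.

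**Figure D1:**
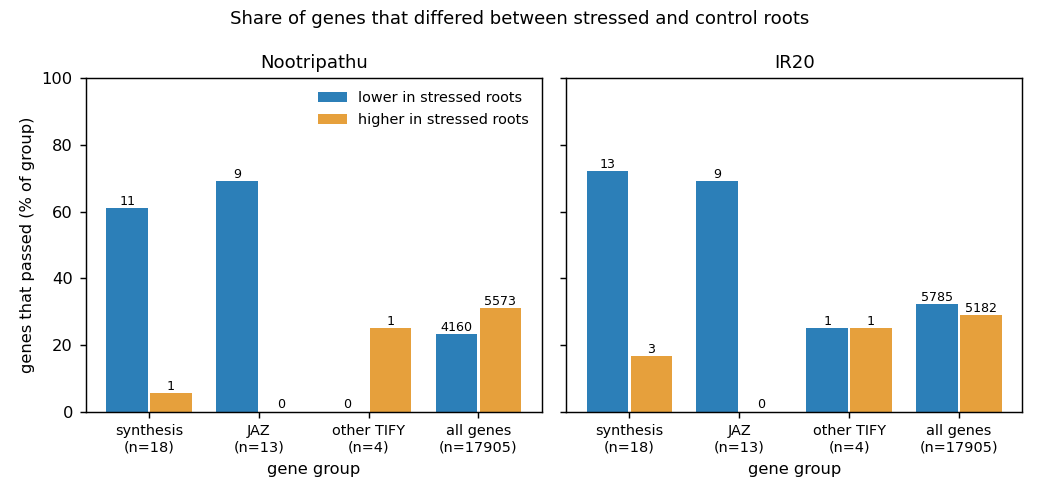
Share of genes (vertical axis, percent of the group) that were lower or higher in stressed than in control roots at an adjusted p under 0.05, for the synthesis, JAZ and other TIFY genes and for all measured genes, with Nootripathu on the left and IR20 on the right. Numbers above bars are counts of genes. Falling genes made up 11 of 18 synthesis genes and 9 of 13 JAZ genes in Nootripathu, and 13 of 18 and 9 of 13 in IR20, where 4160 and 5785 of all 17905 genes fell.

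The deposited values put all arrays on a common distribution, and the direction of small differences depends on that. Scaled to the spiked-in 3′ transcripts instead, every drought difference moved by −0.89 in Nootripathu and by −0.61 in IR20, and the median over all probe sets moved to −0.89 and −0.51, against −0.00092 and 0.10 as deposited. On that scale 17 of 18 synthesis genes and 15 of 17 TIFY genes were lower in stressed Nootripathu roots, but so were 74.3% of all probe sets. In IR20 the counts were 14 and 10, with 25.7% of all probe sets lower. A share of probe sets is unlike a share of genes. As deposited, 14.4% of probe sets but 23.2% of genes were lower in Nootripathu, and 17.1% but 32.3% in IR20. Both shifts are negative, so no fall could change direction on that scale, and it is no check of the falls. An error in the constant of an array moves all its probe sets together, which the p values on that scale do not take into account. Each rise of the genes that stand for the 35 is given with its value on both scales. For TIFY6B the direction depends on the choice of probe set.

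Among the lipoxygenases, LOX9 (LOC4345994) showed the largest fall, and by the same amount in both cultivars. Its signals were 4.08 and 4.25 in stressed and 6.59 and 6.68 in control Nootripathu roots. In IR20 they were 5.21 and 5.23 in stressed and 7.79 and 7.61 in control roots. The stressed and control arrays did not overlap in either cultivar, and Nootripathu stood below IR20 in both conditions. The differences were −2.47 ± 0.11 in Nootripathu (adjusted p = 2.13e-06) and −2.48 ± 0.11 in IR20 (adjusted p = 1.31e-06), and their difference of 0.01 ± 0.16 did not pass (adjusted p = 0.983). The other 2 probe sets of LOX9 had mean signals of 3.33 to 3.81 (lower quartiles of the arrays 3.95 to 4.08), and differences of −0.19 and −0.11 in Nootripathu and −0.25 and −0.21 in IR20 that did not pass.

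LOX8 (LOC4345993) lies next to LOX9 with no annotated gene between them, and both encode lipoxygenases of the plastid type. LOX8 signals were 3.41 and 3.71 in stressed and 4.58 and 4.05 in control Nootripathu roots, and 3.27 and 3.62 in stressed and 4.31 and 4.97 in control IR20 roots. All stressed arrays read lower than the control arrays of their cultivar, and all lay under the lower quartiles of the arrays. The fall passed in IR20 at −1.19 ± 0.26 (adjusted p = 0.00728) and not in Nootripathu at −0.76 ± 0.26 (adjusted p = 0.0582). Without control IR20 replicate 2 the IR20 difference was −0.87 (adjusted p = 0.052).

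LOX3 (LOC4333818) has the synonym r9-LOX1, which places it among the lipoxygenases whose products feed other oxylipins than jasmonate. It had signals of 4.97 and 4.37 in stressed and 6.02 and 5.76 in control Nootripathu roots, and of 4.90 and 4.57 in stressed and 5.76 and 6.10 in control IR20 roots. Control arrays were higher in both cultivars without overlap. The differences of −1.22 ± 0.22 in Nootripathu (adjusted p = 0.0035) and −1.19 ± 0.22 in IR20 (adjusted p = 0.00332) both passed, and the effects differed by −0.02 ± 0.32 (adjusted p = 0.97).

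LOX5 (LOC4333823), with 8 annotated genes between it and LOX3, was the lipoxygenase with positive differences. Its signals were 13.69 and 13.73 in stressed and 13.45 and 13.51 in control Nootripathu roots, and 12.99 and 13.03 in stressed and 12.73 and 12.72 in control IR20 roots. The difference passed in IR20 at 0.29 ± 0.09 (adjusted p = 0.0419) and did not in Nootripathu at 0.23 ± 0.09 (adjusted p = 0.1). The IR20 call was lost in each of the 8 fits that left out an array, at adjusted p values from 0.0504 to 0.143. On the spike-in scale the differences turned to −0.66 in Nootripathu and −0.32 in IR20. LOX2 (LOC4331824) ranged from 8.05 to 8.42 over the 8 arrays, with differences of −0.13 ± 0.11 in Nootripathu and −0.0004 ± 0.11 in IR20 that did not pass.

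The 4 AOS genes fell in Nootripathu, and 3 of the 4 fell in IR20. They encode cytochromes P450 of the CYP74 family. AOS1 and AOS2 are the allene oxide synthases of rice jasmonate synthesis, whereas AOS3 and AOS4 have also been described in rice as hydroperoxide lyases, which draw on the same substrate.

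AOS4 (LOC4328743) had the largest fall of the 18 synthesis genes in IR20. Its signals were 5.70 and 5.94 in stressed and 10.21 and 10.10 in control Nootripathu roots. They were 5.56 and 5.61 in stressed and 11.01 and 11.05 in control IR20 roots. In both cultivars drought brought the gene to just above the array medians, and the higher control level of IR20 had no counterpart among stressed roots. The differences were −4.33 ± 0.11 in Nootripathu (20.2-fold lower, adjusted p = 2.92e-07) and −5.45 ± 0.11 in IR20 (43.6-fold lower, adjusted p = 8.59e-08). The effects differed by 1.11 ± 0.16, the fall being the smaller in Nootripathu (adjusted p = 0.00242).

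AOS3 (LOC4328742) is the immediate neighbour of AOS4 and fell with it in Nootripathu, by less, but not in IR20. Signals of AOS3 were 6.24 and 6.29 in stressed and 7.34 and 7.18 in control Nootripathu roots, against 7.69 and 7.87 in stressed and 7.40 and 7.45 in control IR20 roots. Stressed arrays lay below the controls in Nootripathu and above them in IR20. The difference was −0.996 ± 0.110 in Nootripathu (adjusted p = 0.000218) and 0.36 ± 0.11 in IR20 (adjusted p = 0.0346), and these differed by −1.35 ± 0.15 (adjusted p = 0.000826). The IR20 rise was not stable: it passed in 1 of 8 fits that left out an array, was 0.27 (adjusted p = 0.11) without stressed IR20 replicate 2, and turned to −0.25 on the spike-in scale. The difference between cultivars lay between −1.44 and −1.26 in those fits. On the spike-in scale it was −1.64 (adjusted p = 0.00689). That scale moved every such difference by −0.29, so it is no check of a negative one.

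AOS2 (LOC4332121) fell in both cultivars, by more in IR20. Nootripathu roots gave 8.01 and 8.11 when stressed and 8.98 and 9.02 as controls, and IR20 roots gave 6.76 and 6.48 when stressed and 9.11 and 9.17 as controls. Control roots of the cultivars were alike to within −0.13 ± 0.12, and stressed Nootripathu arrays stood above both stressed IR20 arrays. The differences were −0.94 ± 0.12 in Nootripathu (adjusted p = 0.000465) and −2.51 ± 0.12 in IR20 (adjusted p = 1.63e-06), so that the effects differed by 1.58 ± 0.17 (adjusted p = 0.000571). That difference was 1.29 on the spike-in scale and did not pass there (adjusted p = 0.0626).

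AOS1 (LOC4334233), whose mutant is known as precocious, fell less. It read 12.29 and 12.35 in stressed and 12.98 and 12.91 in control Nootripathu roots, and 11.25 and 11.42 in stressed and 12.13 and 12.19 in control IR20 roots. Nootripathu was above IR20 in both conditions, by 0.99 ± 0.10 in stressed and 0.79 ± 0.10 in control roots. The drought differences of AOS1 were −0.63 ± 0.10 in Nootripathu (adjusted p = 0.002) and −0.82 ± 0.10 in IR20 (adjusted p = 0.000365), and the difference of 0.20 ± 0.15 between them did not pass (adjusted p = 0.389).

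AOC (LOC4333201), the gene lost in the jasmonate-deficient rice mutants cpm2 and hebiba, did not pass in either cultivar with all arrays. Its signals were 13.09 and 13.03 in stressed and 13.10 and 13.09 in control Nootripathu roots, and 12.67 and 12.91 in stressed and 13.07 and 13.10 in control IR20 roots. The Nootripathu groups touched, and both stressed IR20 arrays lay below their controls. The differences were −0.04 ± 0.11 in Nootripathu (adjusted p = 0.841) and −0.30 ± 0.11 in IR20 (adjusted p = 0.0667). Without stressed IR20 replicate 2 the IR20 difference was −0.42 and passed (adjusted p = 0.0155), as did AOC between cultivars in stressed roots, at 0.39 (adjusted p = 0.0337) against 0.27 with that array (adjusted p = 0.124). On the spike-in scale both passed, at −0.93 in Nootripathu (adjusted p = 0.00667) and −0.91 in IR20 (adjusted p = 0.0176), beside the medians of −0.89 and −0.51 over all probe sets.

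**Figure D2:**
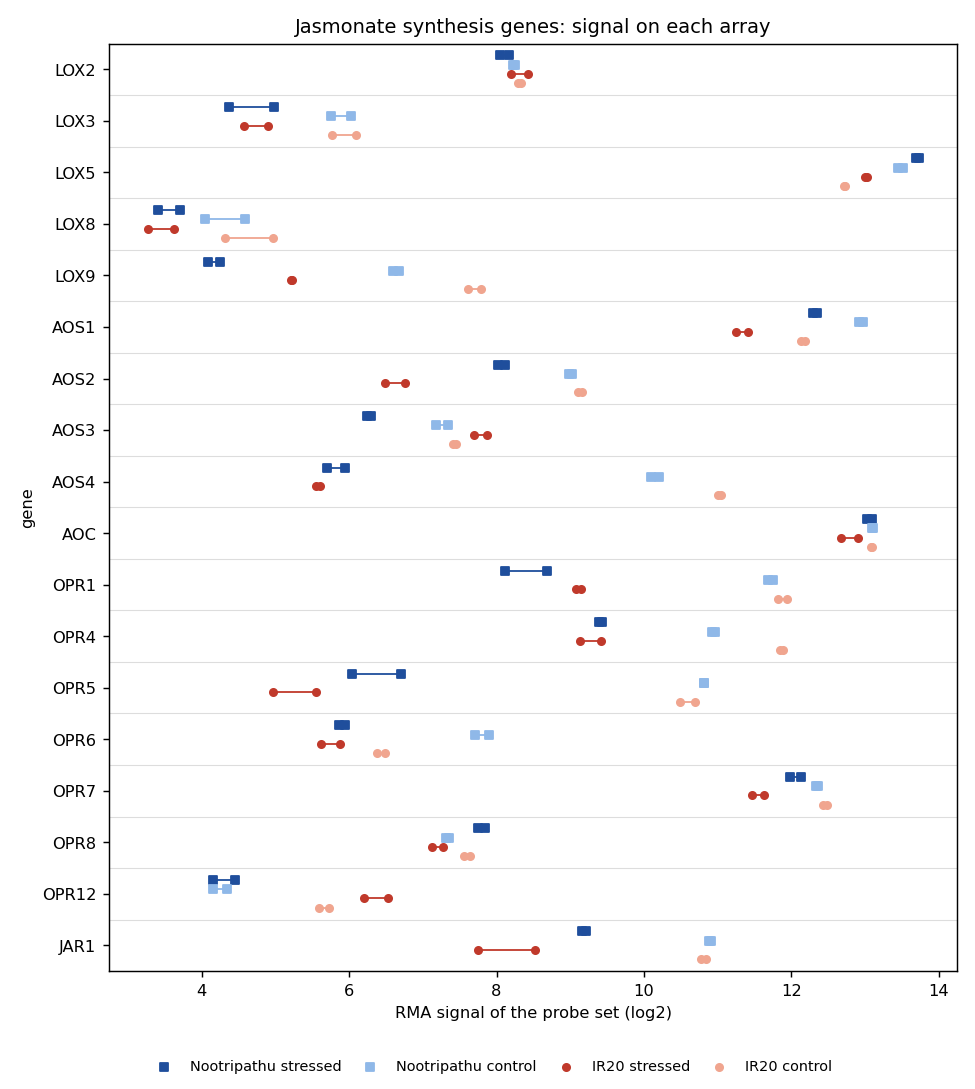
Log2 signal (horizontal axis) of the probe set that stands for each of the 18 synthesis genes on each array, with blue squares for Nootripathu and red circles for IR20, dark for stressed and pale for control roots, and a line joining the 2 replicates of a group. Dark and pale marks are far apart for AOS4, OPR5 and OPR1 in both cultivars and close together for AOC and LOX2, and AOS2 separates the dark marks of the cultivars but not the pale ones.

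The OPR genes were of mixed behaviour. OPR1, OPR4, OPR5 and OPR6 lie in 1 cluster on the chromosome, with no annotated gene between OPR5 and OPR6, 1 between OPR4 and OPR5 and 2 between OPR1 and OPR4. All 4 fell in both cultivars. Probe sequences were not used here, so how far a probe set of one of these neighbours also reads another was not tested, and the same holds for AOS3 with AOS4, LOX8 with LOX9 and the TIFY11 neighbours. OPR7, OPR8 and OPR12 lie apart from the cluster, and as deposited none of these 3 passed as a fall in both. On the spike-in scale OPR7 did, at −1.19 in Nootripathu and −1.52 in IR20. That scale moved every difference by −0.89 in Nootripathu and −0.61 in IR20, so it is no check of a fall. Position and drought effect were not tested against each other. OPR7 is the reductase shown to act in jasmonate synthesis in rice, and its loss gives the open glume mutant; the substrates of several other family members in the plant are not settled.

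OPR5 (LOC4340485) dropped to near the array medians. Its signals were 6.04 and 6.70 in stressed and 10.81 and 10.81 in control Nootripathu roots, and 4.97 and 5.55 in stressed and 10.49 and 10.69 in control IR20 roots. Replicates of stressed roots differed by more than those of control roots, and no stressed array came near a control array. The differences were −4.44 ± 0.24 in Nootripathu (21.7-fold lower, adjusted p = 5.17e-06) and −5.33 ± 0.24 in IR20 (40.3-fold lower, adjusted p = 1.42e-06). The effects differed by 0.89 ± 0.34, which did not pass (adjusted p = 0.112), and by 1.18 without stressed IR20 replicate 2, which did (adjusted p = 0.0427). A second probe set of OPR5, with lower signals, gave differences of −2.07 in Nootripathu and −1.94 in IR20 that also passed. By that probe set the effects differed by −0.13, which did not pass (adjusted p = 0.701). The name OPR5 is also a synonym of OPR12 in the annotation, so the locus identifies the gene.

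OPR1 (LOC4340490) had 8.11 and 8.68 in stressed and 11.69 and 11.76 in control Nootripathu roots, and 9.14 and 9.08 in stressed and 11.94 and 11.82 in control IR20 roots. Control levels of the cultivars were alike and both stressed groups lay far below them. The OPR1 differences were −3.33 ± 0.17 in Nootripathu (adjusted p = 4.05e-06) and −2.77 ± 0.17 in IR20 (adjusted p = 7.17e-06), and the difference of −0.56 ± 0.24 between them did not pass (adjusted p = 0.154).

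OPR4 (LOC4340486) and OPR6 (LOC4340484) fell in both cultivars but by unequal amounts, and in opposite order. OPR4 read 9.39 and 9.43 in stressed and 10.96 and 10.92 in control Nootripathu roots, and 9.13 and 9.42 in stressed and 11.88 and 11.84 in control IR20 roots. OPR6 read 5.86 and 5.95 in stressed and 7.90 and 7.71 in control Nootripathu roots, and 5.61 and 5.88 in stressed and 6.49 and 6.38 in control IR20 roots. For both genes the stressed levels of the cultivars were close and the control levels apart, with IR20 the higher for OPR4 and Nootripathu the higher for OPR6. The OPR4 differences were −1.53 ± 0.12 in Nootripathu and −2.58 ± 0.12 in IR20, and the effects differed by 1.06 ± 0.17 (adjusted p = 0.00364). The OPR6 differences were −1.90 ± 0.13 in Nootripathu and −0.69 ± 0.13 in IR20, and the effects differed by −1.21 ± 0.18 (adjusted p = 0.00279).

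OPR7 (LOC4345762) had 11.98 and 12.13 in stressed and 12.34 and 12.36 in control Nootripathu roots, and 11.46 and 11.62 in stressed and 12.43 and 12.48 in control IR20 roots. The stressed arrays of both cultivars were below their controls, those of IR20 by more. The difference passed in IR20 at −0.91 ± 0.11 (adjusted p = 0.000252) and did not in Nootripathu at −0.29 ± 0.11 (adjusted p = 0.0739, or 0.0428 in the fit without stressed IR20 replicate 2). The effects themselves differed by 0.62 ± 0.15 (adjusted p = 0.0257), a call that was lost without either control IR20, either control Nootripathu or stressed Nootripathu replicate 2 array, at values of 0.54 to 0.64 and adjusted p values of 0.0609 to 0.0932.

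OPR8 (LOC4329684) was the one synthesis gene that rose in Nootripathu and fell in IR20. Its signals were 7.85 and 7.75 in stressed and 7.32 and 7.36 in control Nootripathu roots, and 7.12 and 7.27 in stressed and 7.56 and 7.64 in control IR20 roots. No array of a stressed group overlapped the controls of its cultivar. The differences were 0.46 ± 0.10 in Nootripathu (adjusted p = 0.00969) and −0.40 ± 0.10 in IR20 (adjusted p = 0.0167), and they differed by 0.86 ± 0.15 (adjusted p = 0.00539). The Nootripathu rise was lost without either control or the first stressed Nootripathu array (0.41 to 0.48, adjusted p 0.051 to 0.0703), and turned to −0.43 on the spike-in scale. The IR20 fall was lost without control replicate 2 (−0.36, adjusted p = 0.0952) or stressed replicate 1 (−0.33, adjusted p = 0.0507). Genes that passed in opposite directions in the 2 cultivars numbered 2 of the 35, AOS3 and OPR8, against 4.25% of all genes.

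OPR12 (LOC107279821) had 4.16 and 4.45 in stressed and 4.35 and 4.16 in control Nootripathu roots, and 6.20 and 6.53 in stressed and 5.59 and 5.73 in control IR20 roots. The Nootripathu values lay close to the lower quartiles of the arrays and below every IR20 value. The difference of 0.05 ± 0.15 in Nootripathu did not pass, and that of 0.71 ± 0.15 in IR20 did (adjusted p = 0.00751). Without control IR20 replicate 1 the IR20 rise was 0.64 (adjusted p = 0.0509), and on the spike-in scale it was 0.10 (adjusted p = 0.795).

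JAR1 (LOC4339756), the enzyme that joins jasmonic acid to isoleucine, fell in both cultivars. It had 9.16 and 9.21 in stressed and 10.91 and 10.88 in control Nootripathu roots, and 8.52 and 7.75 in stressed and 10.84 and 10.77 in control IR20 roots. The controls of the cultivars were level, and the lowest value came from stressed IR20 replicate 2. The JAR1 differences were −1.71 ± 0.21 in Nootripathu (3.26-fold lower, adjusted p = 0.000451) and −2.67 ± 0.21 in IR20 (6.36-fold lower, adjusted p = 2.83e-05). The difference of 0.96 ± 0.30 between these effects did not pass (adjusted p = 0.0615). Without stressed IR20 replicate 2 it was 0.58 and passed (adjusted p = 0.0206).

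The JAZ genes split between members that fell in both cultivars and members that did not pass in either. In Nootripathu 9 of 13 JAZ genes fell, 0 rose at the adjusted threshold and 1 was higher at an unadjusted p under 0.05 in limma. In IR20 9 of 13 fell and 0 rose, also at an unadjusted p under 0.05. Among all genes 23.2% fell and 31.1% rose in Nootripathu, and 32.3% fell and 28.9% rose in IR20. The 9 genes were the same in both cultivars: TIFY3, TIFY5, TIFY6A, TIFY6B, TIFY9, TIFY10A, TIFY10B, TIFY11A and TIFY11E. Of all genes 17.5% fell in both. The direction of TIFY6B depends on the probe set. The Nootripathu calls of TIFY6B, TIFY10A, TIFY11A and TIFY11E depended on single arrays, as given below. The median JAZ difference was −0.50 in Nootripathu and −1.09 in IR20. For the 18 synthesis genes it was −0.97 in Nootripathu and −1.05 in IR20.

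In Nootripathu 8 of 18 synthesis genes and 2 of 17 TIFY genes fell by at least 2-fold, against 11.5% of all genes. In IR20 9 of 18 and 7 of 17 did, against 16.9% of all genes. These counts describe the 2 groups and were not tested against each other.

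TIFY6A (LOC4345625, also JAZ3) had the largest JAZ fall in IR20. Its signals were 9.86 and 10.06 in stressed and 11.63 and 11.58 in control Nootripathu roots, and 9.23 and 9.09 in stressed and 11.45 and 11.50 in control IR20 roots. Controls were alike, and stressed IR20 arrays read lowest. The differences were −1.64 ± 0.11 in Nootripathu (adjusted p = 1.49e-05) and −2.31 ± 0.11 in IR20 (adjusted p = 1.78e-06).

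TIFY5 (LOC4342421, also JAZ2) had the largest JAZ fall in Nootripathu and was the one JAZ gene that fell by more there than in IR20. It had 5.25 and 5.56 in stressed and 7.76 and 7.62 in control Nootripathu roots, and 5.36 and 6.01 in stressed and 6.79 and 6.87 in control IR20 roots. Stressed roots of the cultivars overlapped, near the array medians, while control roots did not overlap and Nootripathu was the higher. The differences were −2.29 ± 0.21 in Nootripathu (adjusted p = 7.43e-05) and −1.14 ± 0.21 in IR20 (adjusted p = 0.00279), and the effects differed by −1.14 ± 0.29 (adjusted p = 0.0296).

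TIFY3 (LOC4337240, also JAZ1 and EG2, a gene known from spikelet development) had 12.19 and 12.30 in stressed and 13.11 and 13.06 in control Nootripathu roots, and 11.59 and 11.76 in stressed and 13.18 and 13.17 in control IR20 roots. The 4 control arrays were nearly level and stressed IR20 was lowest. The TIFY3 differences were −0.84 ± 0.10 in Nootripathu (adjusted p = 0.000421) and −1.50 ± 0.10 in IR20 (adjusted p = 1.28e-05).

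TIFY10B (LOC4343899, also JAZ7) followed the same order. It read 13.49 and 13.47 in stressed and 13.99 and 14.02 in control Nootripathu roots, and 12.95 and 13.01 in stressed and 14.08 and 14.07 in control IR20 roots. Its differences were −0.53 ± 0.09 in Nootripathu (adjusted p = 0.00275) and −1.09 ± 0.09 in IR20 (adjusted p = 3.69e-05). TIFY9 (LOC4335698, also JAZ5) had 8.60 and 8.69 in stressed and 9.42 and 9.43 in control Nootripathu roots, and 7.82 and 8.23 in stressed and 9.24 and 9.14 in control IR20 roots. It fell without overlap in both cultivars, with differences of −0.78 ± 0.14 in Nootripathu and −1.16 ± 0.14 in IR20. TIFY10A (LOC4333065, also JAZ6) fell too, with −0.50 ± 0.11 in Nootripathu and −0.76 ± 0.11 in IR20. Its Nootripathu call was lost without either control Nootripathu array or stressed Nootripathu replicate 2 (−0.48 to −0.50, adjusted p 0.0561 to 0.0596).

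The TIFY11 genes held both falling members and members that did not pass, side by side on the chromosome. TIFY11A, TIFY11C and TIFY11B are consecutive genes with none annotated between them, and TIFY11D and TIFY11E are separated by 3 genes. TIFY11A (LOC4331832, also JAZ9) had 12.68 and 12.69 in stressed and 13.15 and 13.09 in control Nootripathu roots, and 11.40 and 11.67 in stressed and 12.63 and 12.70 in control IR20 roots. Both its differences passed, −0.44 ± 0.11 in Nootripathu (adjusted p = 0.0202) and −1.13 ± 0.11 in IR20 (adjusted p = 0.000106). TIFY11B (LOC4331834) ranged from 14.28 to 14.34 in stressed and 14.47 to 14.49 in control Nootripathu roots, and from 14.04 to 14.06 in stressed and 14.19 to 14.22 in control IR20 roots. Its differences of −0.17 ± 0.09 in Nootripathu and −0.16 ± 0.09 in IR20 did not pass, and neither did those of TIFY11C (LOC4331833), at −0.15 ± 0.09 and −0.12 ± 0.09. The TIFY11B signals lie near the array maxima of 14.92 to 15.28.

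A second TIFY11B probe set gave another answer in IR20. Its difference there was −2.00 (adjusted p = 0.0294), with signals of 11.52 and 9.22 in stressed and 12.55 and 12.20 in control roots, and the low value came from stressed IR20 replicate 2. In Nootripathu it gave −0.78 (adjusted p = 0.384). TIFY11E (LOC4348531) read 13.44 and 13.40 in stressed and 13.92 and 13.96 in control Nootripathu roots, and 12.44 and 12.02 in stressed and 13.68 and 13.48 in control IR20 roots. It fell in both, with −0.52 ± 0.15 in Nootripathu (adjusted p = 0.0299) and −1.35 ± 0.15 in IR20 (adjusted p = 0.000177). TIFY11D (LOC4348533) had 13.21 and 13.25 in stressed and 13.45 and 13.41 in control Nootripathu roots, and 12.69 and 12.81 in stressed and 12.87 and 12.74 in control IR20 roots. Its differences of −0.20 ± 0.10 and −0.05 ± 0.10 did not pass. The Nootripathu falls of TIFY11A and TIFY11E were each lost without any 1 of the 4 Nootripathu arrays, at −0.41 to −0.47 (adjusted p 0.0776 to 0.112) for TIFY11A and −0.50 to −0.54 (adjusted p 0.0986 to 0.132) for TIFY11E.

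TIFY6B and TIFY10C were the least settled JAZ genes. TIFY6B (LOC4347000, also JAZ4) had differences of −0.35 ± 0.10 in Nootripathu (adjusted p = 0.0333) and −0.75 ± 0.10 in IR20 (adjusted p = 0.000584) by the brighter of its probe sets, of a type that may match several transcripts. Its other probe set gave 0.87 in Nootripathu, which passed as a rise (adjusted p = 0.00463; −0.02 on the spike-in scale), and 0.25 in IR20 (adjusted p = 0.295), so the direction for this gene depends on the probe set. The Nootripathu fall by the first probe set was also lost without any 1 of the 4 Nootripathu arrays (−0.29 to −0.40, adjusted p 0.0707 to 0.175). TIFY10C (LOC4347164, also JAZ8) had 12.10 and 12.19 in stressed and 11.75 and 11.90 in control Nootripathu roots, and 11.16 and 11.39 in stressed and 11.34 and 11.41 in control IR20 roots. It was the only JAZ gene with a positive value in Nootripathu, and its differences of 0.32 ± 0.12 (adjusted p = 0.0726) there and −0.10 ± 0.12 (adjusted p = 0.544) in IR20 did not pass. In the fit without stressed IR20 replicate 2 the Nootripathu value of 0.32 passed (adjusted p = 0.0359), and on the spike-in scale it was −0.57.

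**Figure D3:**
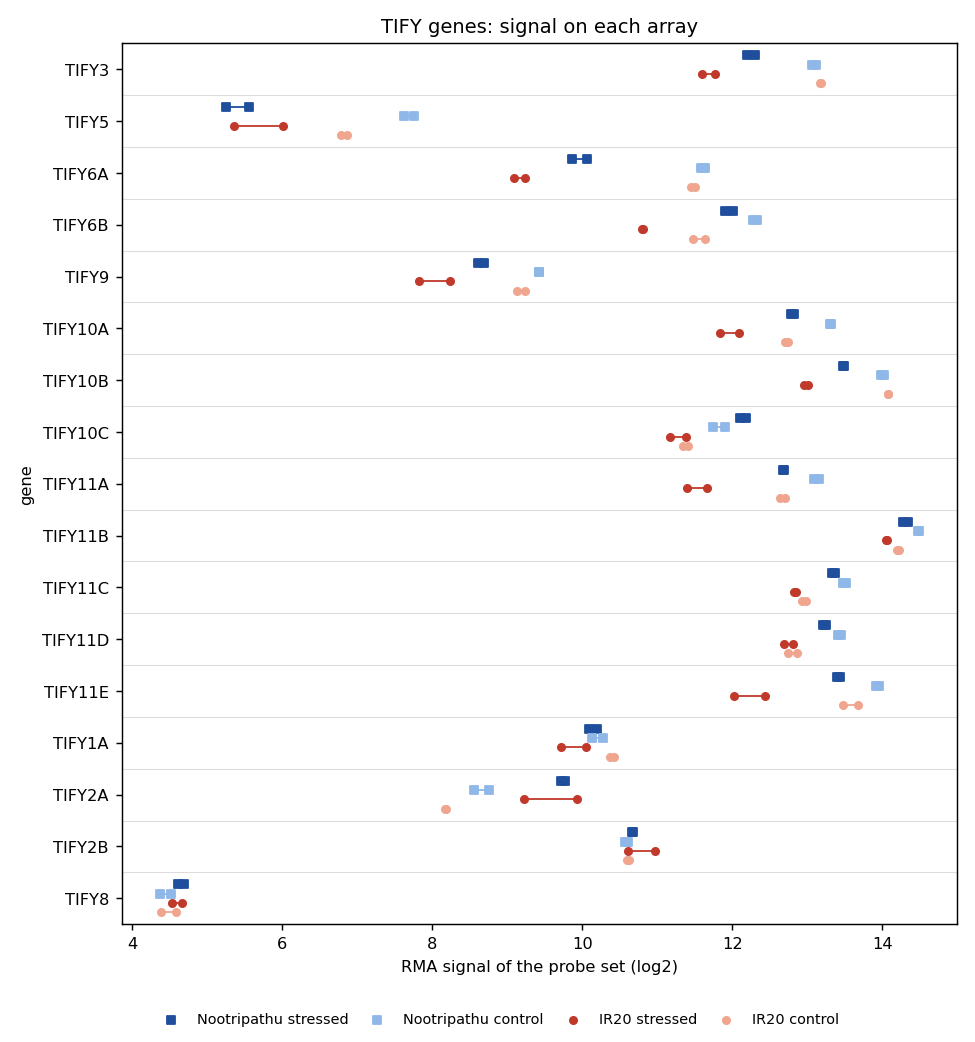
Log2 signal (horizontal axis) on each array of the probe set that stands for each of the 17 TIFY genes, with JAZ genes above and those without a JAZ name at the bottom, blue squares for Nootripathu, red circles for IR20, dark for stressed and pale for control roots. For TIFY3, TIFY6A, TIFY10B and TIFY11E the stressed IR20 marks lie left of all others, and TIFY2A is the gene with stressed marks clearly to the right of control marks in both cultivars.

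The 4 TIFY genes without a JAZ name behaved differently. TIFY1A, TIFY2A and TIFY2B carry GATA names, being proteins that combine the TIFY motif with a GATA-type zinc finger. TIFY2A (LOC4328300) was the only gene of the 35 that rose in both cultivars, where 20.2% of all genes did. Its signals were 9.72 and 9.77 in stressed and 8.56 and 8.76 in control Nootripathu roots, and 9.93 and 9.22 in stressed and 8.19 and 8.17 in control IR20 roots. Every stressed array stood above every control array. The rises were 1.09 ± 0.21 in Nootripathu (adjusted p = 0.00425) and 1.39 ± 0.21 in IR20 (adjusted p = 0.000941), or 1.75 in IR20 without stressed replicate 2. The effects differed by −0.31 ± 0.29, which did not pass (adjusted p = 0.508), and by −0.66 without that array, which did (adjusted p = 0.0235). On the spike-in scale the value was 0.19 in Nootripathu (adjusted p = 0.574) and 0.78 in IR20 (adjusted p = 0.0453), so the direction remained but the Nootripathu call did not.

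TIFY1A (LOC4333738) fell in IR20, at −0.51 ± 0.13 (adjusted p = 0.0157), with 9.72 and 10.05 in stressed and 10.37 and 10.42 in control roots, and had −0.06 ± 0.13 in Nootripathu, where its groups overlapped. The IR20 call was lost without either control array or stressed replicate 1 (−0.35 to −0.54, adjusted p 0.0529 to 0.0833). TIFY2B (LOC4341953) read between 10.57 and 10.97 on all arrays, with differences of 0.08 ± 0.13 in Nootripathu and 0.19 ± 0.13 in IR20. TIFY8 (LOC4330630), which has the motif without a zinc finger, read between 4.37 and 4.69, below the array medians, with 0.21 ± 0.12 and 0.11 ± 0.12. Neither gene passed.

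**Figure D4:**
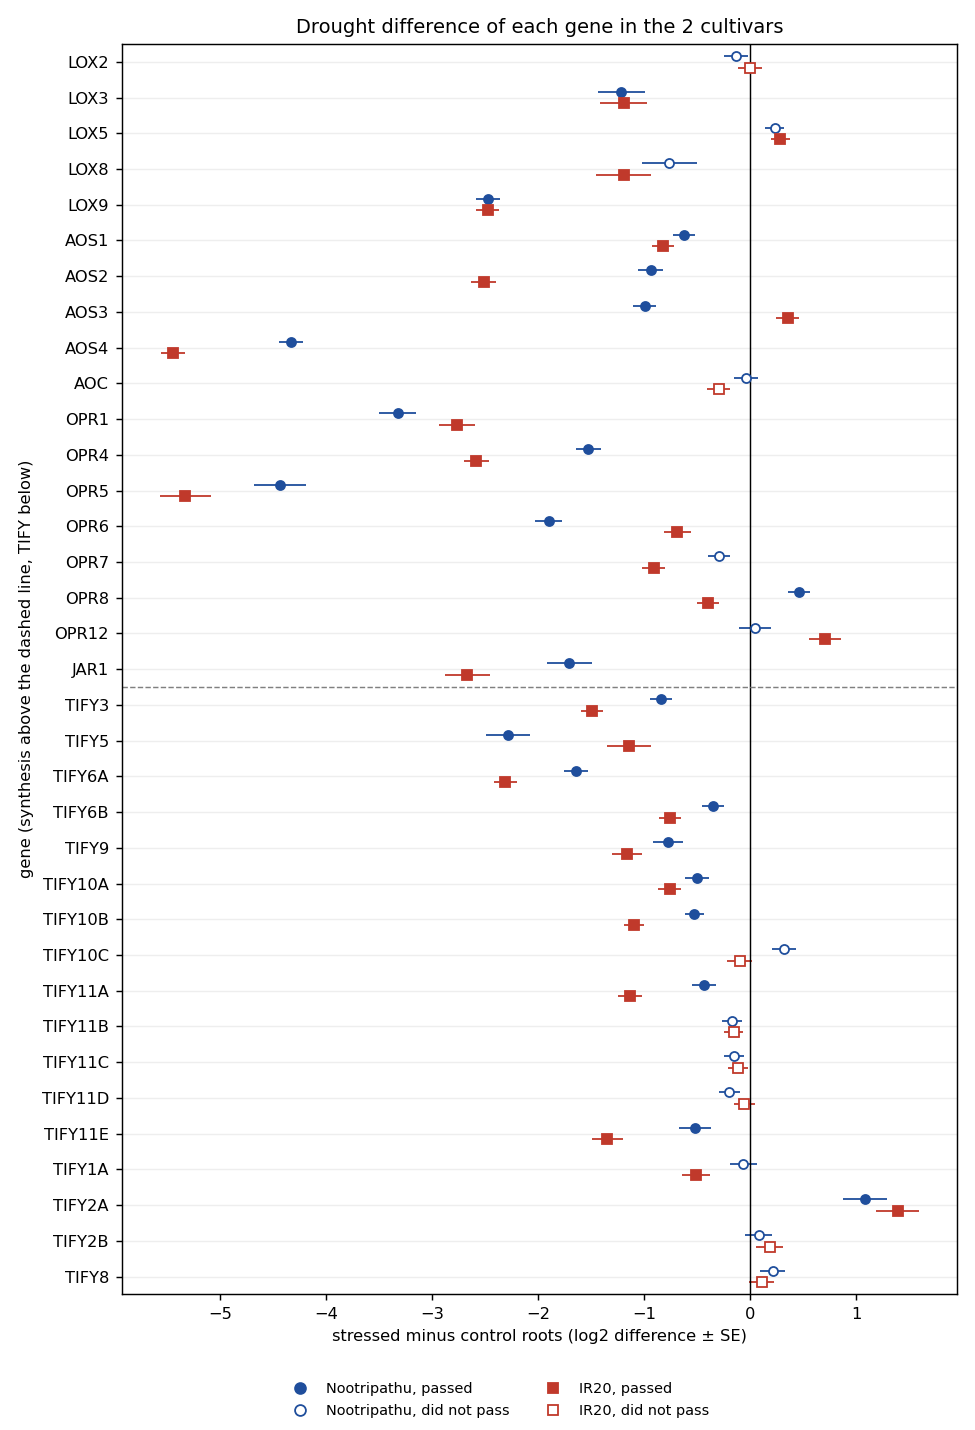
Difference between stressed and control roots (log2, horizontal axis, ± SE, 2 arrays per group) of all 35 genes, with blue circles for Nootripathu and red squares for IR20, filled where the adjusted p was under 0.05. AOS4 and OPR5 reach −4.33 and −4.44 in Nootripathu and −5.45 and −5.33 in IR20, the JAZ genes lie between −2.31 and 0.32, and TIFY2A stands at 1.09 and 1.39.

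The drought effect differed between the cultivars for 13 of the 35 genes, near the share among all genes (32.9%). The value was positive for 10 genes and negative for 3, against 21.2% and 11.8% of all genes. Among synthesis genes 7 of 18 passed and among TIFY genes 6 of 17. A positive value was a smaller fall in Nootripathu for AOS2, AOS4, OPR4, TIFY3, TIFY6A, TIFY10B, TIFY11A and TIFY11E. For OPR7 it was a fall in IR20 with no call in Nootripathu, and for OPR8 opposite directions. The 3 negative values belonged to AOS3, OPR6 and TIFY5.

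The TIFY part of this comparison was fragile. The 6 TIFY differences were 0.66 ± 0.15 for TIFY3, −1.14 ± 0.29 for TIFY5, 0.67 ± 0.16 for TIFY6A, 0.57 ± 0.13 for TIFY10B, 0.70 ± 0.16 for TIFY11A and 0.83 ± 0.21 for TIFY11E, with adjusted p between 0.018 and 0.0296. Leaving out any 1 of the 4 control arrays left 0 of the 17 TIFY genes past the threshold in limma, with 6 to 8 at an unadjusted p under 0.05. Without stressed Nootripathu replicate 1 or 2 the count was 2 or 1, and without stressed IR20 replicate 2 it was 10. The values themselves lay between 0.55 and 0.93 for the positive 5 wherever the call was lost. AOS2, AOS3, AOS4, OPR4, OPR6 and OPR8 passed in all 8 fits that left out an array. On the spike-in scale every such value moved by −0.29, and only AOS3, OPR6 and TIFY5 passed, at −1.64, −1.50 and −1.43. These are the negative values, which that shift could only make larger in size, so it is no check of them. Without stressed IR20 replicate 2 the effects also differed for TIFY9 (0.59, adjusted p = 0.0238), TIFY1A (0.61, adjusted p = 0.0286) and TIFY10C (0.53, adjusted p = 0.0431). With that array these were 0.38, 0.45 and 0.42 and did not pass.

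Markers of dividing cells moved with the cultivar too. All 11 fell in IR20, against 32.3% of all genes. Their mean signal there was 4.46 to 5.00 in stressed and 8.02 to 8.12 in control roots. In Nootripathu 5 rose and 3 fell, against 31.1% and 23.2% of all genes. The means there were 6.20 to 6.38 in stressed and 6.10 to 6.17 in control roots. On the spike-in scale 3 of the 5 rises are negative. The part of these markers in the cultivar differences of the jasmonate genes was not tested.

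Nootripathu and IR20 were next compared directly, in stressed and in control roots. How far sequence differences between the cultivars under the probes shift these signals was not tested. In stressed roots 18 of the 35 genes were higher in Nootripathu and 4 lower, where 18.1% of all genes were higher and 16.7% lower (34.8% in either direction). In control roots 10 were higher and 4 lower, where 12.6% of all genes were higher and 22.8% lower (35.4% in either direction). The JAZ genes made up most of the higher ones, with 11 of 13 in stressed and 7 of 13 in control roots, and 0 of the 17 TIFY genes were lower in either comparison, also at an unadjusted p under 0.05 in limma. The median TIFY difference was 0.51 in stressed and 0.36 in control roots, against −0.01 and −0.08 over all genes. The stressed and control comparisons take their differences from different arrays but share 1 estimate of the spread over all groups. On the spike-in scale, which moved every difference by −0.08 in stressed and 0.20 in control roots, 3 and 2 TIFY genes passed.

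In stressed roots the largest JAZ differences were 1.19 ± 0.15 for TIFY11E (adjusted p = 0.000981), 1.15 ± 0.11 for TIFY11A (adjusted p = 0.000295) and 1.15 ± 0.10 for TIFY6B (adjusted p = 0.000162), whose second probe set also passed at 0.73. TIFY6B read 11.90 and 12.01 in stressed and 12.28 and 12.33 in control Nootripathu roots, and 10.80 and 10.80 in stressed and 11.48 and 11.63 in control IR20 roots, so Nootripathu was the higher in both conditions. TIFY10C followed at 0.87 ± 0.12 and TIFY10A at 0.85 ± 0.11. TIFY11B did not pass in stressed roots, at 0.26 ± 0.09 (adjusted p = 0.0837). Its second probe set did, at 2.22 (adjusted p = 0.0316), with the low value of 9.22 on stressed IR20 replicate 2. TIFY11C and TIFY11D, which did not pass under drought in either cultivar, were higher in Nootripathu by 0.51 ± 0.09 and 0.48 ± 0.10 in stressed and by 0.55 ± 0.09 and 0.63 ± 0.10 in control roots. TIFY5 stood apart, at −0.28 ± 0.21 (adjusted p = 0.377) in stressed and 0.86 ± 0.21 (adjusted p = 0.0217) in control roots. Calls lost when 1 array was left out were those of TIFY3 (0.52, adjusted p = 0.0517, without stressed Nootripathu replicate 2) and of TIFY9 and TIFY11D (without either stressed Nootripathu array, at 0.46 to 0.66 and adjusted p 0.0569 to 0.0956) in stressed roots. In control roots they were those of TIFY5, TIFY10A, TIFY10C and TIFY11A, at 0.37 to 0.93 and adjusted p 0.0505 to 0.201. All 4 were lost without control IR20 replicate 2 and without either control Nootripathu array, and without control IR20 replicate 1 all but TIFY10A were. TIFY10C and TIFY11A were also lost without either stressed Nootripathu array. In the fit without stressed IR20 replicate 2, TIFY2A (0.48, adjusted p = 0.0125), TIFY11E (0.36, adjusted p = 0.0359) and TIFY11B (0.27, adjusted p = 0.0487) passed in control roots and TIFY1A in stressed roots (0.42, adjusted p = 0.0447). With all arrays none of these did, at adjusted p of 0.164, 0.144, 0.0779 and 0.202.

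The synthesis genes went both ways between the cultivars. In stressed roots 7 of 18 were higher and 4 lower in Nootripathu. AOS2 was 1.44 ± 0.12 higher (adjusted p = 0.000103), OPR5 1.11 ± 0.24, JAR1 1.05 ± 0.21 and AOS1 0.99 ± 0.10 higher. The second probe set of OPR5 gave 0.37 in stressed roots, which did not pass (adjusted p = 0.113). In control roots that probe set passed at 0.50 (adjusted p = 0.0484), where the brighter one did not, at 0.22 (adjusted p = 0.614). Lower in stressed Nootripathu roots were OPR12 at −2.07 ± 0.15 (adjusted p = 6.19e-05), AOS3 at −1.52 ± 0.11, LOX9 at −1.05 ± 0.11 and OPR1 at −0.71 ± 0.17. The JAR1 value was 0.67 (adjusted p = 0.00492) without stressed IR20 replicate 2, and its call was lost without stressed Nootripathu replicate 1 or 2 (1.08 and 1.02, adjusted p = 0.052 and 0.061). OPR5 lost its call without stressed IR20 replicate 1 (0.82, adjusted p = 0.0584) or stressed Nootripathu replicate 2 (0.78, adjusted p = 0.0796). OPR1 lost it without either stressed IR20 array or stressed Nootripathu replicate 1 (−0.43 to −0.74, adjusted p 0.0567 to 0.0831), and OPR7, at 0.51 ± 0.11, without stressed Nootripathu replicate 2 (0.44, adjusted p = 0.085).

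In control roots 3 of 18 synthesis genes were higher and 4 lower in Nootripathu, a share of 38.9% that is near the 35.4% of all genes. OPR6 was 1.37 ± 0.13 higher (adjusted p = 0.000177), AOS1 0.79 ± 0.10 and LOX5 0.76 ± 0.09 higher. Lower signals were found for OPR12 (−1.41 ± 0.15, adjusted p = 0.000441), LOX9 (−1.06 ± 0.11), OPR4 (−0.92 ± 0.12) and AOS4 (−0.87 ± 0.11). The signals of LOX5, LOX9, AOS1 and OPR12 thus differed the same way with and without drought. All 7 control-root calls held in each of the 8 fits that left out an array.

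**Figure D5:**
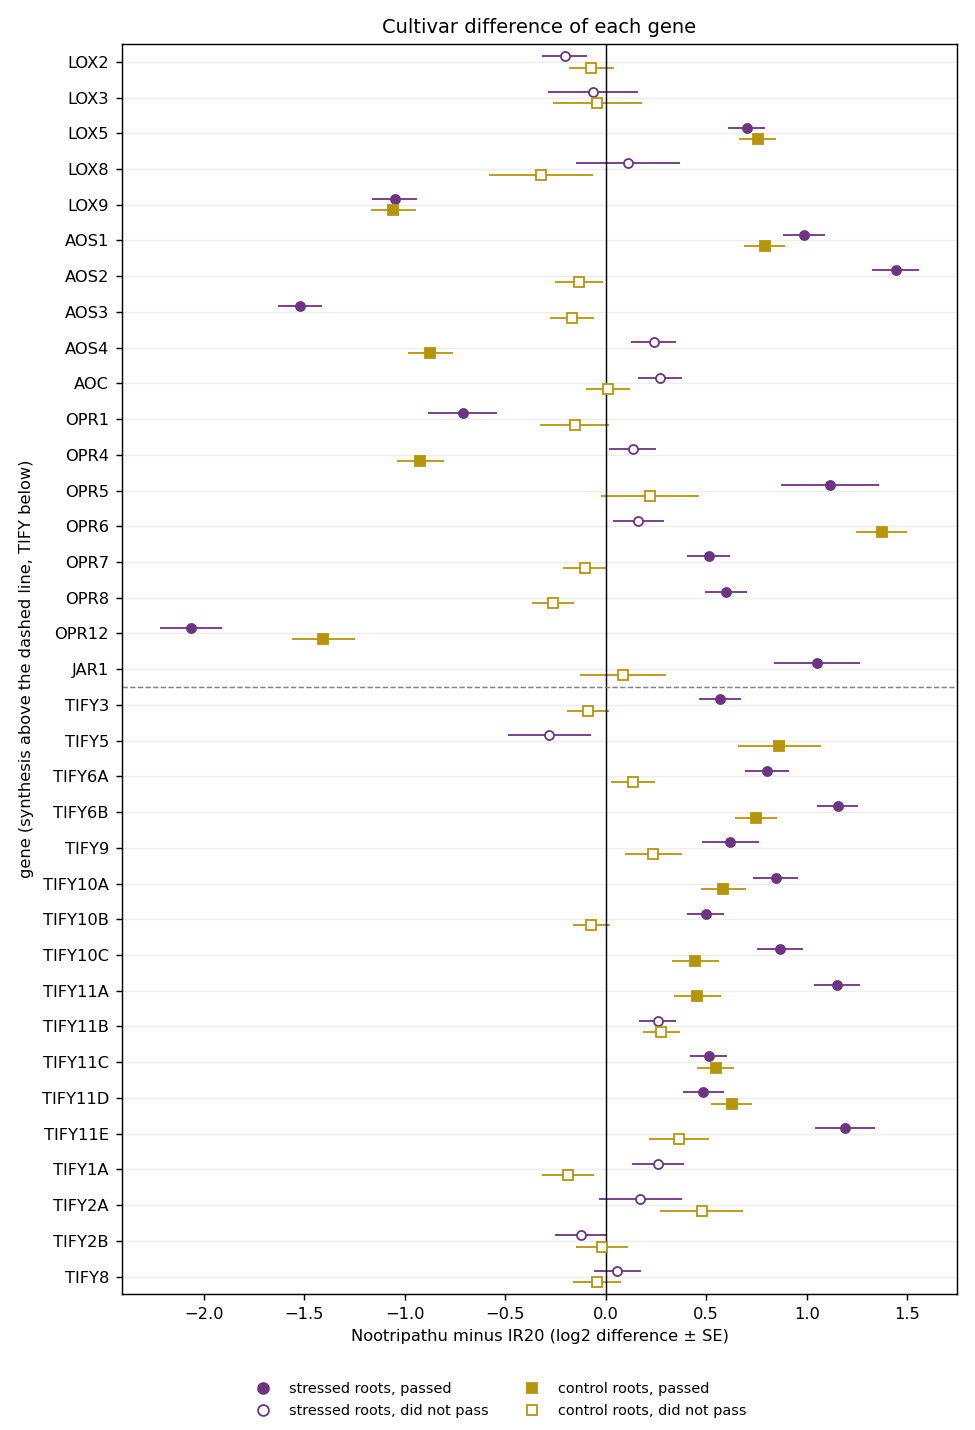
Difference between Nootripathu and IR20 (log2, horizontal axis, ± SE, 2 arrays per group) of all 35 genes, with purple circles for stressed and gold squares for control roots, filled where the adjusted p was under 0.05. Of the 13 JAZ genes, 12 lie right of 0 in stressed roots, with TIFY5 at −0.28 the exception, while the synthesis genes spread from −2.07 for OPR12 to 1.44 for AOS2.

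Other genes of jasmonate perception and use, from a separate list of 51 symbols of which 9 were measured genes, gave 4 falls and 1 rise in Nootripathu and 4 falls and 0 rises in IR20 (0 also at an unadjusted p under 0.05 in limma). Among all genes 23.2% fell and 31.1% rose in Nootripathu, and 32.3% fell and 28.9% rose in IR20. ILL6, named for a hydrolase of hormone conjugates in Arabidopsis, had 7.90 and 7.85 in stressed and 10.06 and 10.07 in control Nootripathu roots, and 7.85 and 7.92 in stressed and 10.14 and 10.06 in control IR20 roots. The cultivars were level in both conditions, and the ILL6 differences were −2.19 ± 0.09 in Nootripathu and −2.21 ± 0.09 in IR20, both passed. JAMYB, a jasmonate-induced MYB factor, had 8.08 and 7.98 in stressed and 10.21 and 10.07 in control Nootripathu roots, and 7.65 and 7.91 in stressed and 9.20 and 9.15 in control IR20 roots. Its differences of −2.11 ± 0.12 in Nootripathu and −1.39 ± 0.12 in IR20 passed, and the effects differed by −0.71 (adjusted p = 0.0237).

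The receptor genes moved less and not together. COI1B fell in both, with −0.77 ± 0.10 in Nootripathu and −0.52 ± 0.10 in IR20. COI1, also named COI1A, rose by 0.41 ± 0.10 in Nootripathu (adjusted p = 0.014) and had 0.16 ± 0.10 in IR20, and COI2 had −0.12 ± 0.09 and 0.01 ± 0.09. The COI1 value in Nootripathu was −0.48 on the spike-in scale. Of the co-repressors that JAZ proteins recruit, TPR2 fell by 0.60 ± 0.10 in each cultivar, TPR3 had −0.15 ± 0.10 and −0.02 ± 0.10, and the adaptor NINJA1 had 0.21 ± 0.10 in Nootripathu and −0.23 ± 0.10 in IR20. BHLH148, a transcription factor that binds JAZ proteins in rice, had −0.22 ± 0.11 and −0.08 ± 0.11. TPR3, COI2, NINJA1 and BHLH148 did not pass in either cultivar.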

How the data were processed

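RNA (2 ug per sample) was labelled and hybridised to an Affymetrix rice genome array. The deposited values are log2 signals that the authors computed by RMA in Affymetrix Expression Console 3.0, according to the submitters' processing notes. The table held 57381 probe sets, of which 123 controls were left out of the tests. In the annotation 22436 probe sets had 1 gene, 95 several and 34727 none listed. Symbols there are mostly locus numbers, so gene names came from synonyms in RefSeq's gene table (assembly ASM3414082v1), used for names and neighbours only. A gene was represented by its brightest single-gene probe set, by mean over the 8 arrays. Of the 35 genes 31 had 1 probe set.

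Groups were fitted with limma 3.58.1 in R 4.3.3, with 1 mean per group, 4 residual and 3.88 prior degrees of freedom and a prior SD of 0.129. Contrasts were stressed minus control for Nootripathu and for IR20, how far these 2 effects differed, and Nootripathu minus IR20 in each condition. Benjamini-Hochberg adjustment of the p values ran over 57258 probe sets. The fit was tested on simulated data.

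Members, marker lists and alternatives were chosen with earlier results of these data known, and the spike-in scaling (12 probe sets of the 3′ ends) had first been tried once the control probe sets were known. Array values are given for genes that passed with a difference of at least 1, for genes whose drought effects differed, and for members of both kinds of enzyme step and gene cluster that set these off. With 2 arrays per group the number of arrays limits precision. A p value sets a difference against a spread drawn partly from these samples and partly from the other probe sets. Same-numbered replicates were not paired. Sequences and coordinates were not used here.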

Additional observations from a re-analysis of the deposited data

Results flagged for a closer look

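The drought effect differed between Nootripathu and IR20, by limma's test of that difference, for 13 genes. The values are Nootripathu minus IR20 on the log2 scale. Among synthesis genes they were 1.58 for AOS2, 1.11 for AOS4, 1.06 for OPR4, 0.86 for OPR8, 0.62 for OPR7, −1.21 for OPR6 and −1.35 for AOS3. Among JAZ genes they were 0.83 for TIFY11E, 0.70 for TIFY11A, 0.67 for TIFY6A, 0.66 for TIFY3, 0.57 for TIFY10B and −1.14 for TIFY5. Groups of 2 arrays are too small for a check of single outlying samples.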

How the results depend on the processing

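Counting only differences of at least 2-fold left 9 synthesis genes called in IR20, 3 TIFY genes in Nootripathu, 1 TIFY gene in the difference of effects, 3 synthesis and 0 TIFY genes (9 at an unadjusted p under 0.05 in limma, with no minimum size) between cultivars in control roots, and 6 synthesis and 3 TIFY genes between cultivars in stressed roots. The spike-in scaling gave 2 synthesis genes and 1 TIFY gene in the difference of effects, 4 and 2 in control roots and 6 and 3 in stressed roots. Counting sign changes where the value passed on at least 1 of the scales, it reversed LOX5 (−0.66 in Nootripathu, −0.32 in IR20), AOS3 in IR20 (−0.25) and, in Nootripathu, OPR8 (−0.43), OPR12 (−0.85), TIFY2B (−0.81) and TIFY8 (−0.68). Signs also changed, with no call on either scale, for TIFY10C in Nootripathu (−0.57) and TIFY2B (−0.42) and TIFY8 (−0.50) in IR20. Without probe sets that may match several transcripts 4 TIFY genes of 14 differed in control roots, and TIFY6B became 0.87 in Nootripathu and 0.25 in IR20. The mean of the probe sets gave 0.26 for TIFY6B in Nootripathu. A fit of only the arrays compared called 7 synthesis genes in stressed roots.

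Leaving out each array in turn, synthesis and TIFY counts ran from 11 to 13 and 6 to 11 in Nootripathu, from 12 to 15 and 10 to 11 in IR20, from 6 to 9 and 0 to 10 in the difference of effects, from 8 to 11 and 8 to 13 between cultivars in stressed roots, and from 7 to 7 and 3 to 10 in control roots. The 0s came without any 1 of the 4 control arrays. The 6 TIFY genes in Nootripathu came without either control array or stressed replicate 2 of Nootripathu, and the control-root counts of 4, 3, 3 and 3 without control IR20 replicate 1 and 2 and control Nootripathu replicate 1 and 2.

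The replicate numbers are shared labels. Differences between replicates 1 and 2 correlated between groups at −0.01 to 0.21 over probe sets, so the samples were not taken as pairs. With the replicate number as a block, 12 synthesis and 11 TIFY genes were called in Nootripathu, 15 and 11 in IR20, 8 and 6 in the difference of effects, 11 and 11 in stressed and 7 and 7 in control roots, within 1 of the counts without it. The other alternatives, which were centring on medians, quantile normalisation done again, a trended robust prior and dropping the dimmest 40% of probe sets, moved no count of synthesis or TIFY genes by over 1.5 times and reversed no value.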
